A study of Mus musculus with 2 samples.

Results

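Plasma cells of the abdominal aorta were described in a mouse model of aortic aneurysm, in which angiotensin II (AngII) and salt were given together (AngII+HS). The cells were chosen by their own transcripts. Barcodes were retained that held 500 or more UMIs (unique molecular identifiers, each standing for 1 captured RNA molecule) on 200 or more genes, with mitochondrial genes below 20% of the UMIs. A plasma cell then had at least 10 UMIs of *Jchain*, at least 2 UMIs of *Mzb1*, *Derl3* and *Tnfrsf17* together, at most 1 UMI of the T cell genes *Cd3d*, *Cd3e* and *Cd3g*, and at most 1 UMI of the macrophage genes *C1qa*, *C1qb* and *C1qc*. By this rule 180 of the 24560 retained cells of the AngII+HS library were plasma cells. In the Control library 4 of 11288 retained cells were, and 35848 cells were retained in all.

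Both groups were male C57BL/6J mice of 5 months. AngII+HS mice received AngII at 1500 ng/kg/min from an implanted minipump for 28 days and drank water with 0.9% NaCl and 0.2% KCl, and Control mice received saline. Each library was 1 pool, of 5 mice by the design text, while the protocol in the labels speaks of fewer animals, and single mice cannot be told apart within it. No test between conditions was possible with a single library of each, and every interval given is a 95% interval for counting error alone (exact binomial for shares, exact Poisson for ratios of UMI sums). GEO's record of samples decided which matrix was which. The lists of barcodes had 24804 entries for Control and 11448 for AngII+HS, the reverse of the matrices, and 67 barcodes were shared between the lists. A swap of the matrices would exchange the conditions in every statement that compares them.

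Plasma cells are the antibody-secreting end stage of the B cell lineage. BLIMP1, the product of *Prdm1*, silences the B cell program, and XBP1 enlarges the endoplasmic reticulum (ER), where heavy and light chains enter through the SEC61 channel, are folded, glycosylated and passed on to the Golgi. The heavy chain constant gene fixes the isotype. IgM and IgA are joined into polymers by the J chain, the product of *Jchain*, whereas IgG is secreted as a monomer.

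The plasma cells made up 0.733% (0.630 to 0.848) of retained AngII+HS cells and 0.0354% (0.00966 to 0.0907) of retained Control cells. The AngII+HS share lay above its interval once cells with at least 2% of UMIs on genes of other cell types were left out. This step takes cells of those other types themselves out of the retained cells. A higher share was thus fixed by its design and is not a correction of the value given. That value is given in the closing section. B cells, taken as cells with at least 3 UMIs of *Cd79a* and *Cd79b* together and under 10 of *Jchain*, numbered 677 in AngII+HS (2.76%) and 46 in Control (0.408%). Of plasma and B cells together, plasma cells were 21.0% (18.3 to 23.9) in AngII+HS and 8% (2.22 to 19.2) in Control, so that these intervals overlapped narrowly. Of 218 AngII+HS cells with at least 10 *Jchain* UMIs, 210 passed the *Mzb1*, *Derl3* and *Tnfrsf17* minimum, 208 also the T cell limit and 180 also the C1q limit. Just outside the rule stood 9 cells with 5 to 9 *Jchain* UMIs, whose median cell had 0.765% of its UMIs on immunoglobulin genes. Just inside stood 5 cells with 10 to 19 *Jchain* UMIs, with a median of 6.84%, and the other 175 cells had a median of 45.9%. The 4 Control cells held 11650 to 18490 UMIs each, and all 4 were among the cells removed by a doublet score (Scrublet), against 53 of the 180 AngII+HS plasma cells (29.4%) and 144 of the 677 B cells (21.3%). The score removed 19.6% of all retained AngII+HS cells and 9.03% of all retained Control cells, shares that were set by the rate of 0.8% per 1000 cells that it was given and are not measured.

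*Jchain*, *Mzb1* and *Derl3* mark plasma cells, and since they chose the cells, their levels are a description. *Jchain* was found at a median of 131.5 UMIs per plasma cell (range 10 to 921) and *Mzb1*, an ER cofactor of antibody assembly, at 17.5 (range 1 to 167). *Derl3*, a component of ER-associated degradation, was found in 76.1% of the cells. Of markers that the rule did not use, *Xbp1* had a UMI in 178 of 180 cells, with a median of 10. *Sdc1*, the plasma cell surface protein CD138, was found in 52.8% of the cells. Cells were also thinned at random to 1000 UMIs outside immunoglobulin genes. *Sdc1* was then found in 12.1% of plasma, 1.63% of B and 3.41% of T cells of the AngII+HS library. Its list of surface and other markers had 10 genes compared with B cells per UMI outside immunoglobulin genes. Of these, 5 were at least 2-fold higher, among them *Tnfrsf17* of the rule. The 2 at least 2-fold lower were *Cd38* and *Fcrl5* (log2 ratios -2.01 and -3.25). Over all 11378 genes compared in this way, 10.5% were at least 2-fold higher and 17.4% at least 2-fold lower. Plasmacytoid dendritic cells also express several plasma cell marker genes, but their defining genes *Siglech* (1 UMI over 180 cells) and *Klk1* (0 UMIs) were at or near 0. Of that list of 6 genes, which summed to 759 UMIs, *Tcf4* made up 718, and *Tcf4* was also the most abundant gene of the list in B cells (1227 of 1260 UMIs).

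Genes of other cell types were found in the plasma cells, and those of fibroblasts, smooth muscle and neutrophils lay mostly in few of them. The 6 fibroblast genes summed to 3780 UMIs, led by *Col3a1* (941), of which 3148 lay in 19 cells. The 4 smooth muscle genes summed to 3031 UMIs, led by *Acta2* (1722), of which 2643 lay in 6 cells. The 6 neutrophil genes summed to 1950 UMIs, led by *S100a9* (1073), of which 1768 lay in 12 cells. The 8 macrophage genes summed to 812 UMIs, led by *Apoe* (524), were spread over 159 cells, with 536 UMIs in cells that held under 20 each. The rule itself limited the C1q genes of the macrophage list and the *Cd3* genes of the T cell list. Their levels were thus fixed in part by the choice of cells. T cell genes summed to 26 UMIs with *Cd3d*, *Cd3e* and *Cd8a* at 0, NK cell genes to 2, endothelial genes to 106 in 42 cells, dendritic genes to 23 and erythroid genes to 33 in 30 cells. The part of these cells in the results was not tested beyond the values given without them.

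Immunoglobulin RNA dominated the plasma cells. Summed over the 180 cells, 803879 of 2068252 UMIs (38.9%) came from immunoglobulin genes and *Jchain*. The median cell held 45.8% (quartiles 31.1 and 56.9, range 0.717 to 78.2), and 168 of 180 cells held at least 10%. In B cells the summed share was 0.625% and the median cell held 0.553%. The highest B cell held 36.3%, and it was the only 1 of 677 with at least 10%. T cells, which do not assemble immunoglobulin, had 0.0537% in the AngII+HS library, where *Igkc* gave 1135 of 1792 such UMIs, *Igha* 172 and *Jchain* 74. In the Control library they had 0.0058%, of which 30 of 36 UMIs were *Ighm* and none *Igha* or *Jchain*, so both shares differ in their genes and the Control share is not read as a level of free RNA. The plasma cells were also deeper than the B cells, with a median of 10717 UMIs against 2667, and they remained deeper outside immunoglobulin genes, with a median of 5867 UMIs against 2650.

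Most plasma cells were led by a switched isotype. The constant gene with the most heavy chain UMIs was *Igha* in 70 cells (38.9%, 31.7 to 46.4), *Ighg2c* in 61 (33.9%, 27.0 to 41.3), *Ighg3* in 17 (9.44%), *Ighg2b* in 16 (8.89%), *Ighm* in 15 (8.33%, 4.74 to 13.4) and *Ighg1* in 1. No cell was led by *Ighd* or *Ighe*. An IgG gene therefore led 95 cells (52.8%, 45.2 to 60.2). All of these genes lie in 1 cluster on the minus strand of chromosome 12, with *Ighm* at chr12:113382178-113386350, *Ighg2c* at chr12:113248945-113252552 and *Igha* at chr12:113218450-113223856 (GRCm39, GENCODE annotation matched by gene ID). In the median cell the call was nearly complete: the leading gene held 99.9% of the heavy chain UMIs of the median IgA cell and 99.8% of the median IgG2c cell. The lowest leading share was 55.9%, in an IgG3 cell, and *Igha* UMIs in 3 of the 17 IgG3 cells came to 744. B cells of the same library had the opposite make-up. Of 593 B cells with at least 2 heavy chain UMIs, *Ighm* led 414 (69.8%, 65.9 to 73.5), *Ighd* led 69 (11.6%) and *Igha* led 3. The IgG genes led few of them, from 5 for *Ighg2c* to 8 for *Ighg3*. Of the 4 Control plasma cells 3 were led by *Igha* and 1 by *Ighg2b*.

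**Figure D1:**
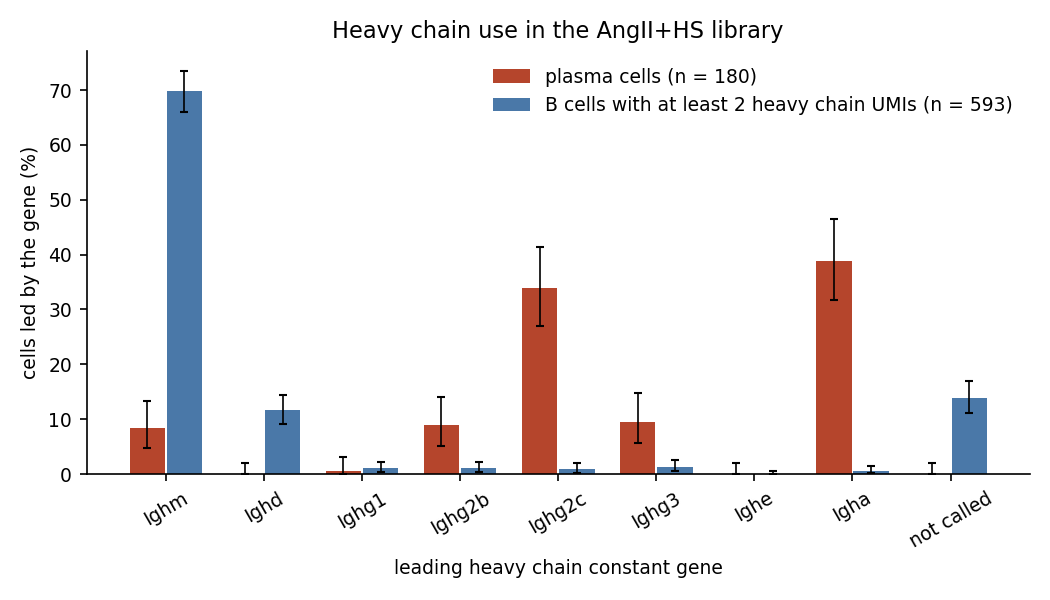
Percent of cells (y axis) led by each heavy chain constant gene (x axis) among the 180 plasma cells and the 593 B cells with at least 2 heavy chain UMIs of the AngII+HS library; error bars are exact 95% binomial intervals. *Igha* (38.9%) and *Ighg2c* (33.9%) lead the plasma cells, and *Ighm* (69.8%) leads the B cells.

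Among the chosen cells *Jchain* differed by isotype, which is a description, since *Jchain* chose the cells. The median cell had 0.43 *Jchain* UMIs per heavy chain UMI among IgA cells (quartiles 0.33 and 0.56) and 0.30 among IgM cells (0.21 and 0.49). It had 0.083 among IgG2c cells (0.053 and 0.14), 0.075 among IgG2b cells (0.054 and 0.11) and 0.067 among IgG3 cells (0.041 and 0.21). The quartiles of the IgA and IgM cells overlapped each other, and those of IgA lay above those of all 3 IgG groups. In UMIs per cell, *Jchain* had a median of 244 in IgA cells (range 46 to 921) and of 92 in IgG2c cells (range 10 to 437). Since the rule requires 10 *Jchain* UMIs, it can miss cells with little of it, and 5 cells lay between 10 and 19. The lowest count was 10 in IgG2c and in IgG3 cells and 46 in IgA cells. The *Jchain* levels by isotype and the isotype shares therefore hold only for cells past this minimum, and its part in them was not tested. The share of immunoglobulin RNA did not separate the isotypes, with medians from 43.9% in IgA to 47.9% in IgG2c cells and ranges that overlapped almost wholly.

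**Figure D2:**
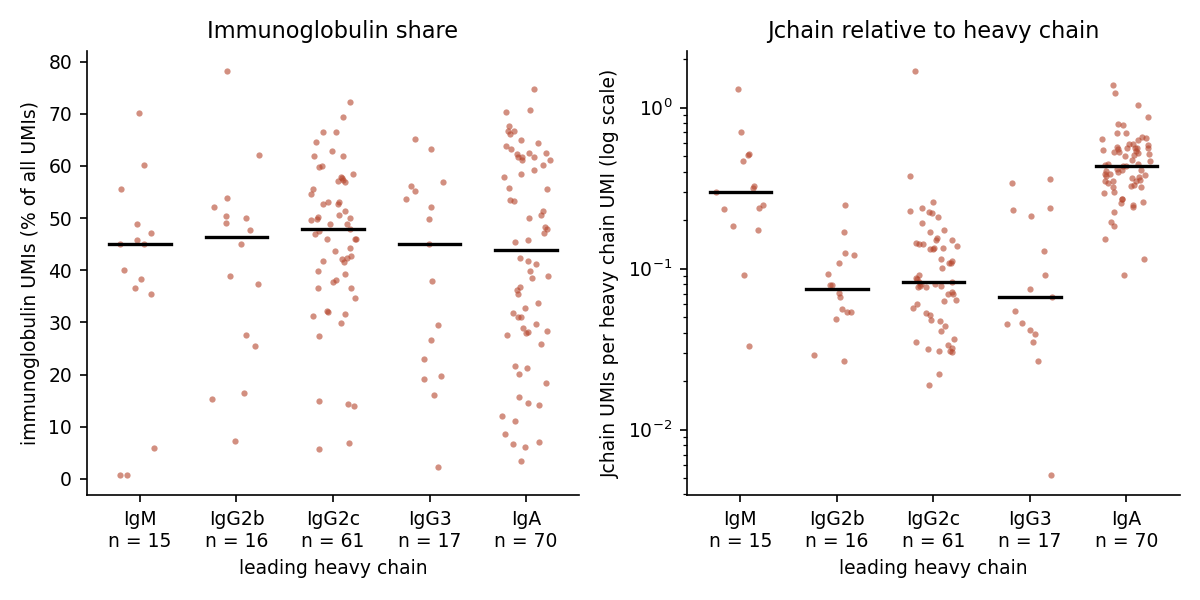
Each point is 1 plasma cell of the AngII+HS library, grouped by leading heavy chain, with the median as a bar; the left panel gives the percent of UMIs on immunoglobulin genes and the right panel *Jchain* UMIs per heavy chain UMI on a log axis. The immunoglobulin shares of the 5 groups overlap, and *Jchain* per heavy chain UMI is higher in IgA (median 0.43) and IgM (0.30) than in the IgG groups; the single IgG1 cell is not drawn.

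Light chains were mostly kappa. *Igkc*, the kappa constant gene, led 170 cells (94.4%, 90.0 to 97.3), and a lambda constant gene led 10, of which 9 were led by *Iglc1* and 1 by *Iglc3*. The calls were clear, with a median of 99.7% of light chain UMIs on *Igkc* in kappa cells and at most 0.591% in lambda cells. The lambda variable gene *Iglv1* (chr16:18903767-18904250, minus strand, GRCm39) behaved otherwise. It had UMIs in 160 of the 170 kappa cells, where it was counted 8463 times and *Iglc1* 775 times, so its counts in kappa cells did not follow the lambda constant genes. The summed rate was 1.51 per 100 *Igkc* UMIs, and it differed between the isotypes, from 0.143 in the 15 IgM and 0.830 in the 65 IgA kappa cells to 2.38 in the 57 IgG2c kappa cells. In lambda cells it was 1.48 per 100 lambda constant UMIs. With the V genes of both chains pooled, *Iglv1* led 87 of 164 called cells. The V genes of a cell were therefore also read only from the chain of its constant gene, a choice made after these counts were seen.

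Variable segments were diverse, with 1 exception. On that reading, heavy and light V genes were both called in 140 cells (at least 3 UMIs and at least 50% of the V UMIs of the chain), which carried 89 distinct pairs, 69 of them in 1 cell only. Of the 20 pairs found in more than 1 cell, 17 were found with 1 isotype only. The most common pair was *Ighv1-80* (chr12:115875964-115876396, minus strand, GRCm39) with *Igkv4-57* (chr6:69552959-69553484, minus strand), in 27 cells. All 27 were led by *Ighg2c*, and they made up 44.3% of the IgG2c cells and 15% of all plasma cells. The next most common pairs, *Ighv5-16* with *Igkv4-68* (IgA) and *Ighv8-8* with *Igkv1-110* (IgG3), were found in 4 cells each. With the V genes of both chains together, the first pair was called in 3 cells, and *Ighv1-80* with *Iglv1* in 26, of which 25 were IgG2c.

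The 27 cells had depths and immunoglobulin shares that overlapped those of the other 34 IgG2c cells. Of 5 genes given here, *Xbp1* had a higher median in the 27 cells and the others a lower one. Their median depth was 13102 UMIs (range 1533 to 64047) against 12484.5, and 49.0% immunoglobulin UMIs (range 5.70 to 69.5) against 47.5%. They had a median of 17 *Ighv1-80* UMIs (range 4 to 39) and 20 *Igkv4-57* UMIs (range 4 to 48). In CPM of UMIs outside immunoglobulin genes (counts per 1000000 such UMIs), *Hsp90b1*, an ER chaperone, had a median of 1394 per cell (quartiles 1060 and 1679) against 3323 (1606 and 7620) in the other IgG2c cells. *Creld2*, an ER stress protein, had 320 (231 and 501) against 889 (411 and 1206), and *Mzb1*, which the rule used, 1628 (1022 and 3328) against 4113 (2682 and 7859). The medians were 3258 against 3818 for *Ssr4* and 2452 against 1899 for *Xbp1*. The ranges between the quartiles overlapped for all 5 genes. These genes were picked after their values were seen, and without the deepest of the 27 cells, which held 64047 UMIs, the medians were 1400 for *Hsp90b1*, 321 for *Creld2* and 1738 for *Mzb1*. Outside the plasma cells, 4 of 24380 retained AngII+HS cells had at least 3 UMIs of both genes, and none of the 677 B cells, the 769 T cells or the 11288 Control cells did. These libraries read the 3′ end of transcripts, and the junction sequence that identifies a clone was not read, so cells that share a pair are not shown to share a clone, and the mice they came from are not known.

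Against the B cells of the same library, the secretory pathway was higher at almost every step. UMIs were summed over the cells of each type and set per 1000000 UMIs outside immunoglobulin genes (CPM), since immunoglobulin RNA takes so large a share of the plasma cells. Both cell types were selected on transcripts of these same cells, so the ratios are descriptions. Of 11378 genes with at least 20 UMIs in both types together, 10.5% were at least 2-fold higher in plasma cells and 17.4% at least 2-fold lower, with a median log2 ratio of -0.21. Of 123 genes of 5 secretory lists, 87 were at least 2-fold higher and 2 at least 2-fold lower (*Stt3b* and *Pdia5*), with a median log2 ratio of 1.56. *Derl3*, which chose the cells, is counted among the 87, so its part of the count and median was fixed by the rule and is a description only. On the scale of all UMIs the median of all genes moved to -0.90, with 4.58% higher and 45.4% lower, and the median of the 5 lists to 0.86. Counted as UMIs per cell, the median of all genes was 0.48, with 26.9% higher and 6.48% lower, and that of the 5 lists 2.26.

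Of 23 genes of entry into the ER 19 were at least 2-fold higher (median log2 ratio 1.81), and all 23 had a ratio above 0 on this scale. *Sec11c*, a subunit of the signal peptidase, had a log2 ratio of 3.88 (3.74 to 4.03) and was found in 99.4% of plasma cells. *Ssr4*, of the translocon-associated complex, had 3.78 (3.65 to 3.91), *Tram2* 3.97 (3.51 to 4.51), and *Sec61b*, a subunit of the channel itself, 2.23 (2.13 to 2.34). The lowest member was *Sec62* at 0.41.

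Folding showed the highest median, with 23 of 29 chaperones and disulfide enzymes at least 2-fold higher (median 2.04). *Creld2* stood at 4.64 (4.36 to 4.95), *Fkbp11* at 4.49 (4.03 to 5.05) and *Txndc5*, a disulfide isomerase, at 4.08 (3.88 to 4.30). *Hsp90b1*, the chaperone GRP94, was the most abundant of the list, with 6392 UMIs in plasma cells, and had a log2 ratio of 3.04 (2.96 to 3.11). *Hspa5*, the chaperone BiP, had 1.85 (1.76 to 1.94). Under 2-fold stood *Canx* (0.34), *Dnajc10* (0.33), *Pdia3* (0.84), *P4hb* (0.84) and *Erp29* (0.93), and *Pdia5* was lower (-1.81, on 3 and 26 UMIs).

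Glycosylation, degradation and transport followed. Of 21 N-glycosylation genes 13 were at least 2-fold higher (median 1.21), led by *Krtcap2* at 2.53 and *Ddost* at 2.36, subunits of the oligosaccharyltransferase. Its alternative catalytic subunits differed, with *Stt3a* at 0.91 (0.65 to 1.18) and *Stt3b* at -1.67 (-2.01 to -1.36). Of 19 genes of ER-associated degradation 14 were at least 2-fold higher (median 1.71), among them *Edem2* at 3.97, *Edem1* at 3.59 and *Herpud1* at 3.08. *Derl3*, which chose the cells, is counted among these 14 and is a description only. Of 31 genes of ER to Golgi transport 18 were at least 2-fold higher (median 1.10), led by the cargo receptor *Lman1* at 3.13 (2.89 to 3.39).

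Sensors and outputs of the unfolded protein response were uneven, with 5 of 10 compared genes at least 2-fold higher and none at least 2-fold lower. *Ern1*, which encodes the sensor IRE1 that splices *Xbp1*, had a log2 ratio of 2.31 (2.03 to 2.61) and *Atf6* 1.55 (1.38 to 1.72), whereas *Eif2ak3*, which encodes PERK, had 0.79 (0.60 to 0.99). *Chac1*, a glutathione-degrading enzyme downstream of ATF4, had 251 UMIs in plasma cells and 2 in B cells (7.75, 6.31 to 11.23), while *Ddit3*, the factor CHOP, had 0.62 and *Ppp1r15a* -0.57. Of 12 genes of amino acid transport and synthesis 7 were at least 2-fold higher, led by the transporter *Slc7a5* at 2.42 with its partner *Slc3a2* at 2.09.

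**Figure D3:**
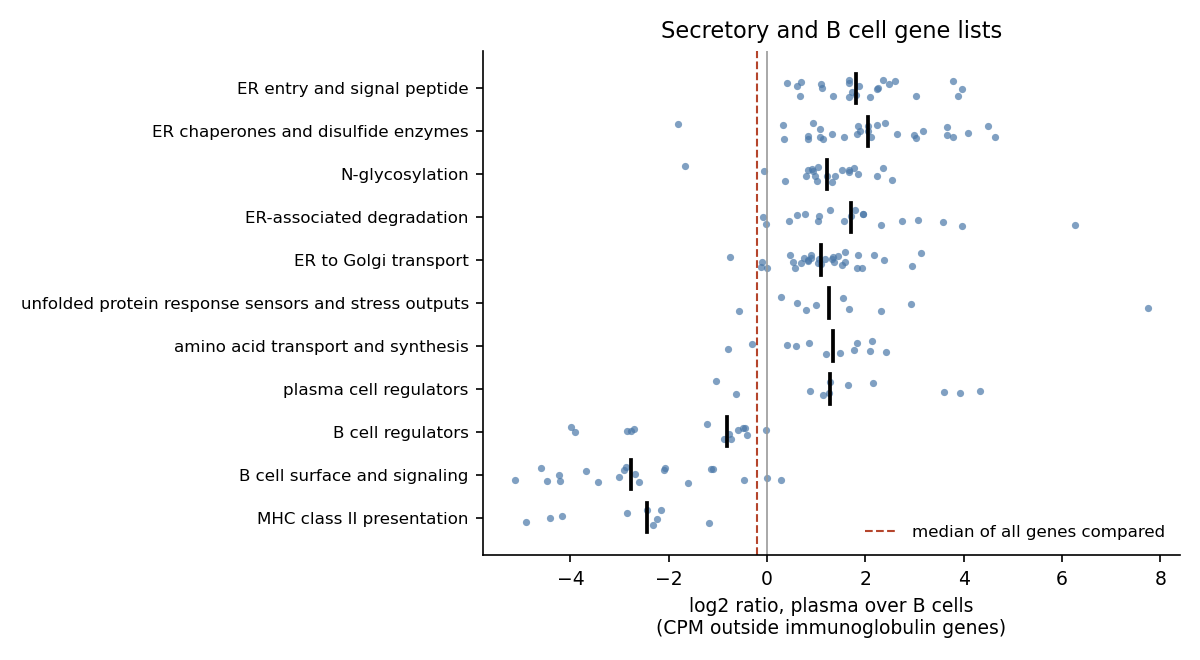
Each point is 1 gene of the list named on the y axis, placed by its log2 ratio of plasma over B cells in CPM outside immunoglobulin genes (x axis); black bars are list medians and the dashed line is the median of all genes compared (-0.21). The 5 secretory lists have medians from 1.10 to 2.04, and the B cell surface and MHC class II lists lie below 0.

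A motif of the ER stress response was looked for in the promoters of the secretory genes. The ER stress response element (ERSE), which the factors ATF6 and XBP1 are known to bind, is the letters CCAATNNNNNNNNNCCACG, searched on both strands of the 250 bases before each gene's start in RefSeq (GRCm38.p6). It was found in 10 of 104 genes of the secretory lists that had a promoter in the table (9.62%), 8 of them among 25 folding genes (32%), against 35 of 27025 genes in all (0.130%). *Derl3*, 1 of these 10, chose the cells. The other 9 had a median log2 ratio of 1.95 (range 0.34 to 4.64) and the 94 without the motif 1.35, and 8 of 9 and 62 of 94 were at least 2-fold higher. Of the 9, 8 belong to the folding list, which had a median of 2.04 as a whole. The part of the list in this difference was not tested. The following stretches, 1 from each of 4 genes that differ in their ratio, are read 5′ to 3′ on the gene's strand, with the motif or its reverse complement in capitals. They lie at chr10:75893212-75893290 (plus strand), chr15:88819490-88819568 (plus), chr10:86705503-86705581 (minus) and chr2:34771995-34772073 (plus) in that order.
Derl3: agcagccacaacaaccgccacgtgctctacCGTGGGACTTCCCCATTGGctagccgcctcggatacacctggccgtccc
Creld2: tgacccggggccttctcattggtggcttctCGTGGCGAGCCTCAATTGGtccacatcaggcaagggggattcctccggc
Hsp90b1: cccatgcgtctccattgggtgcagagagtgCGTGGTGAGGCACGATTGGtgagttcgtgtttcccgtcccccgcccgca
Hspa5: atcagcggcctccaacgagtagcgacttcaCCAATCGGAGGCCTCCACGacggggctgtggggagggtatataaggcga
A match of these letters is a description of the sequence and not a site of binding.

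Most regulators of the plasma cell state were higher, and some of those of the B cell state were lower. Of 11 plasma cell regulators 8 were at least 2-fold higher: *Xbp1* had a log2 ratio of 4.32 (4.14 to 4.52), *Prdm1* 3.92 (3.46 to 4.46), *Eaf2*, an elongation factor partner, 3.60 (3.36 to 3.87) and *Irf4* 1.25 (1.03 to 1.48). *Ell2* (0.86) and *Zbtb20* (-0.62) were under 2-fold, and *Ikzf3* was the 1 member at least 2-fold lower, at -1.04. Of 14 B cell regulators 6 were at least 2-fold lower and none at least 2-fold higher (median -0.82), with *Pax5*, which holds B cell identity, at -3.99 (-4.59 to -3.47), *Ciita*, the activator of MHC class II genes, at -3.91 and *Bach2* at -2.86. The other 8 lay between -0.87 (*Spi1*) and -0.02 (*Tcf3*).

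Genes of the B cell surface were mostly lower. Of 20 genes of B cell surface and signaling 17 were at least 2-fold lower (median -2.77), with *Fcmr*, the IgM receptor, at -5.13 and *Cd22* at -4.22. *Cd79a*, *Cd79b* and *Ms4a1* were still found in 80.6%, 64.4% and 24.4% of plasma cells, and the first 2 chose the B cells. *Blnk* had 0.01 and *Ly6d* 0.29. All 9 genes of MHC class II presentation were at least 2-fold lower (median -2.43), from *Cd74* at -1.17 to *H2-Oa* at -4.91. RNA of other cell types differed between the B cells and the plasma cells. The B cells held more of some lists, with 2532 against 642 CPM of genes of macrophages, which also carry MHC class II, 7728 against 2990 CPM of fibroblast genes and 222 against 83.8 CPM of endothelial genes. They held less of others, with 1307 against 2397 CPM of smooth muscle genes, 1121 against 1542 CPM of neutrophil genes and 432 against 600.3 CPM of plasmacytoid dendritic genes. The C1q limit was set for plasma cells alone. With B cells held to the T cell and C1q limits too, their macrophage genes were at 1221 CPM, all 9 genes were still at least 2-fold lower and the median was -2.48. Without cells with at least 2% of UMIs on genes of other types the median was -2.51, again with all 9 at least 2-fold lower.

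Of 13 survival genes 3 were at least 2-fold higher and 3 lower, and of 18 homing genes 4 were higher and 7 lower. Over all 11378 genes compared, 10.5% were higher and 17.4% lower by as much. *Tnfrsf17*, the receptor BCMA, had 89 UMIs in plasma cells and 0 in B cells. It is counted among the 3 higher survival genes although the rule used it, so its part of that count is a description only. *Tnfrsf13b*, the receptor TACI, had a log2 ratio of 2.23 (1.94 to 2.54) and *Tnfrsf13c*, the BAFF receptor, -0.26 (-0.63 to 0.10). *Cd28*, better known from T cells, had 146 UMIs against 12 (4.73, 3.96 to 5.80). T cell marker genes summed to 26 UMIs in the plasma cells, but the rule itself limited the *Cd3* genes, so their level was fixed in part by the choice of cells. *Ccr10*, a receptor of mucosal chemokines, had 65 UMIs against 0, at least 5.64 on the log2 scale against the limit of 3 counts. *Ccr9* had 3.52 (2.30 to 5.42) on 28 UMIs, and the integrin genes *Itga4* and *Itgal* had 1.15 and 1.69. *Cxcr5* and *Ccr7*, whose receptors guide B cells to follicles and lymph nodes, were lower, at -4.71 and -3.69. The chemokine receptor gene *Ccr6* was also lower, at -6.54. *Cxcr4*, the receptor that holds plasma cells in bone marrow, had -0.65 (-0.95 to -0.37).

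The genes with the highest ratios reached beyond the secretory pathway. Among genes with at least 200 UMIs in both types together that were detected in 25% or more of the cells of either, *Ly6c2*, a surface protein, was first at 7.75 (7.24 to 8.39). *Slpi*, a secreted protease inhibitor (chr2:164195990-164231015, minus strand, GRCm39), was at 7.11 (7.01 to 7.22), with 42258 UMIs in plasma cells and 704 in B cells. *Epcam*, an adhesion protein better known from epithelia, was at 6.38 (5.58 to 7.55) and found in 66.1% of plasma cells. *Trp53inp1* (4.79), *Cpeb3* (4.75), *Pik3cg* (4.22) and *Tent5c*, a poly(A) polymerase (4.10), were also among the 15 highest. The 10 lowest began with *Gm31243* (-5.54), *Fcmr*, *Bank1* (-5.01) and *Cxcr5*. *H2-DMb2* (-4.42), *Cd22*, *Cd72* (-4.21), *H2-Ob* (-4.17), *Satb1* (-4.16) and *BE692007* (-4.06) came next, in that order.

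*Slpi* was uneven among the isotypes. IgG cells had a median of 305 UMIs per cell and 55156 CPM when summed, and 92 of 95 had at least 1. IgA cells had a median of 4.5 UMIs (quartiles 0 and 19.75, highest 211) and a sum of 4291 CPM, with at least 1 in 48 of 70. The 15 IgM cells had a median of 30 UMIs (quartiles 0 and 70) and a sum of 5758 CPM, so that they were near the IgA cells in the sum but not in the median cell, at 6006 against 973 CPM. The sums of IgG2b (36416 CPM), IgG2c (64484) and IgG3 (38431) all stood above both. The log2 ratio of IgA over IgG cells was -3.68 (-3.75 to -3.62), and without the 27 cells that share *Ighv1-80* and *Igkv4-57* it was -3.67. T cells of the library gave 80.6 CPM, with a UMI in 17.7% of cells. The 180 plasma cells, 0.733% of the library's cells, held 42258 of its 78532 *Slpi* UMIs.

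Neutrophil genes moved the same way, at 1681 UMIs in 51 of the IgG cells and 257 UMIs in 29 of the IgA cells. In plasma cells without any UMI of the 6 neutrophil genes, *Slpi* stood at 66132 CPM in 44 IgG cells and 4886 in 41 IgA cells. *Ly6c2* had the same order, at 3365 CPM in IgG and 348 in IgA cells (-3.27, -3.53 to -3.03), and at 4276 and 317 in the cells without neutrophil UMIs.

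IgA and IgG cells were also compared across all genes. Of 7093 genes with at least 20 UMIs, 4.96% were at least 2-fold higher in IgA than in IgG cells and 7.42% at least 2-fold lower. *Ccr10* had 62 of its 65 UMIs in IgA cells, in 29 of 70 cells, and 3 in IgG cells (4.90, 3.55 to 7.49), although IgA cells were shallower (median 4666 UMIs outside immunoglobulin genes, against 6881 in IgG2c cells). In T cells it had 1 UMI over 769 cells. *Cd28* had 87 UMIs in IgA and 52 in IgG cells (1.53, 1.03 to 2.07). T cell genes summed to 16 UMIs in IgA cells (38.7 CPM, in 6 cells) and 8 UMIs in IgG cells (11.1 CPM, in 7 cells). Their part in the *Cd28* ratio was not tested. *Tnfrsf17*, which helped to choose the cells and is given as a description, had 68 and 18 (2.67, 1.95 to 3.55). Of 11 survival genes compared 2 (*Tnfrsf17* and *Cd28*) were higher and 1 lower in IgA cells by at least 2-fold. Only *Cd28* of the higher ones was not used by the rule. Of 10 homing genes 3 were higher and 1 lower. *Ccr9* had 0.03 (-1.26 to 1.24). The secretory lists were close between the isotypes, with 3 of 121 genes at least 2-fold higher and 1 at least 2-fold lower in IgA cells, and a median of 0.23. *Xbp1* had -0.29. Summed stromal genes were also higher in IgA cells: the 6 fibroblast genes stood at 4822 CPM in IgA and 2289 CPM in IgG cells, and the 4 smooth muscle genes at 3626 and 2071 CPM. Most of these UMIs lay in few cells of either isotype: 1779 of 1996 fibroblast UMIs of the IgA cells and 1288 of 1649 of the IgG cells in 9 cells each, and 1373 of 1501 smooth muscle UMIs of the IgA cells in 5 cells and 1270 of 1492 of the IgG cells in 1 cell. Over the cells with under 20 UMIs of the list, fibroblast genes stood at 705 CPM in IgA and 583 CPM in IgG cells and smooth muscle genes at 352 and 316 CPM. Without the plasma cells that had at least 2% of their UMIs on genes of other cell types, the log2 ratio was 4.94 for *Ccr10*, 2.81 for *Tnfrsf17* and 1.71 for *Cd28*. The stromal and T cell lists were set beside these genes after the values were seen.

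**Figure D4:**
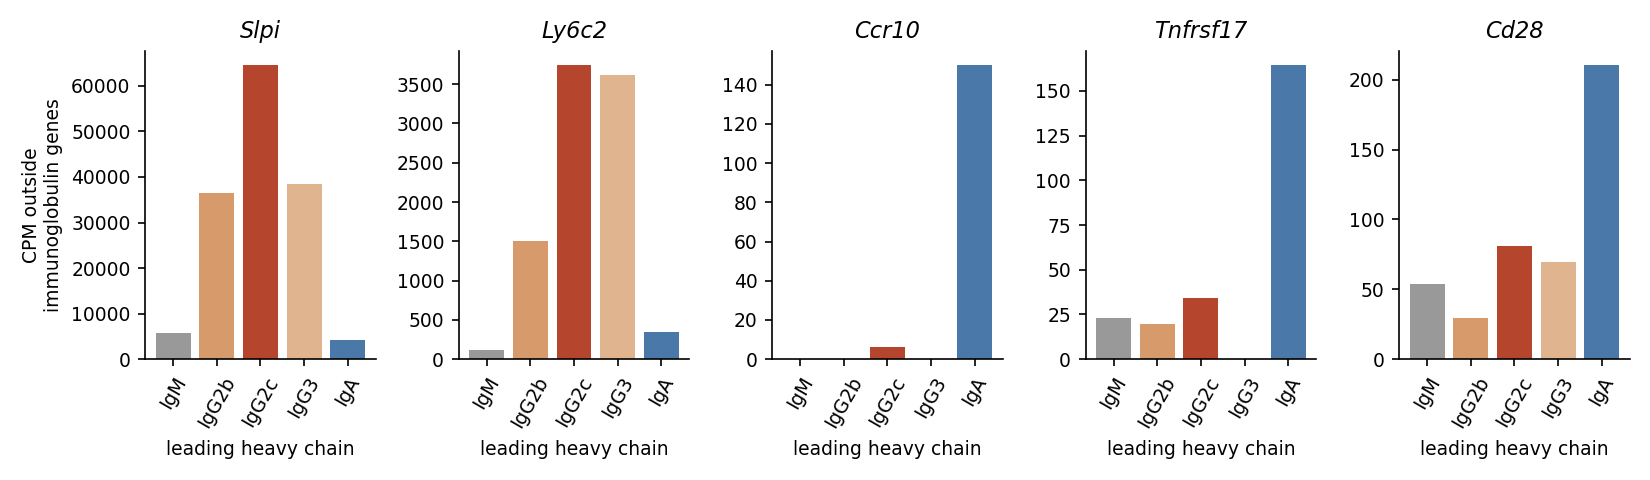
CPM of UMIs outside immunoglobulin genes (y axis, a separate linear scale for each gene) summed over the plasma cells led by each heavy chain (x axis; 15 IgM, 16 IgG2b, 61 IgG2c, 17 IgG3 and 70 IgA cells). *Slpi* and *Ly6c2* are higher in the IgG groups, and *Ccr10*, *Tnfrsf17* (one of the genes that chose the cells) and *Cd28* are highest in IgA cells. In the IgG3 group 394 of 521 *Ly6c2* UMIs lie in 1 cell, and the median cell has 2. No error is drawn.

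Cell cycle transcripts were found in some plasma cells. To allow for depth, each cell was thinned to 1000 UMIs outside immunoglobulin genes and called cycling with at least 2 of 8 cell cycle genes (*Mki67*, *Top2a*, *Cdk1*, *Ccnb1*, *Ccnb2*, *Birc5*, *Cenpf* and *Ccna2*). This gave 17 of 173 plasma cells (9.83%, 5.83 to 15.3), 15 of 674 B cells (2.23%, 1.25 to 3.64) and 14 of 763 T cells (1.83%, 1.01 to 3.06), with 7, 3 and 6 shallower cells left out. Thinning is a random draw, and the same plasma cells thinned by isotype gave 8 of 67 IgA, 5 of 93 IgG and 1 of 13 IgM cells. These do not add up to 17, and the intervals do not cover the draw. Without thinning it was 34 of 180 plasma cells (18.9%) and 37 of 677 B cells (5.47%). Thinned to 500 UMIs it was 1.69% of plasma cells (0.351 to 4.87) and 0.591% of B cells (0.161 to 1.51), whose intervals overlapped. Of 20 cell cycle genes 6 were at least 2-fold higher in plasma than B cells, led by *Ube2c* at 1.84, and none was lower by that much. Over all genes compared, 10.5% were higher and 17.4% lower by that much. The median of the cell cycle list was 0.51, -0.18 on the scale of all UMIs and -0.28 against B cells with at least 6 UMIs of *Cd79a* and *Cd79b*.

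The cycling cells held less immunoglobulin RNA. The 34 cells called without thinning had a median of 17.6% immunoglobulin UMIs, against 49.9% in the other 146. Across the 180 cells, which share 1 library, Spearman's rho between the immunoglobulin share and the summed cell cycle genes in CPM was -0.45 (Pearson's r -0.60), given as a description. When the cells were ranked by immunoglobulin share, 27 of the lowest 60, 7 of the middle 60 and none of the highest 60 were called cycling without thinning. The lowest 60 were also the deepest outside immunoglobulin genes (median 9366 UMIs, against 5693 and 3931), and the part of depth and of doublets was not tested. MHC class II genes did not follow the share (rho 0.0019). Cycling cells were 16 IgA, 15 IgG and 3 IgM cells, and 2 of them belonged to the 27 cells with the common V pair.

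**Figure D5:**
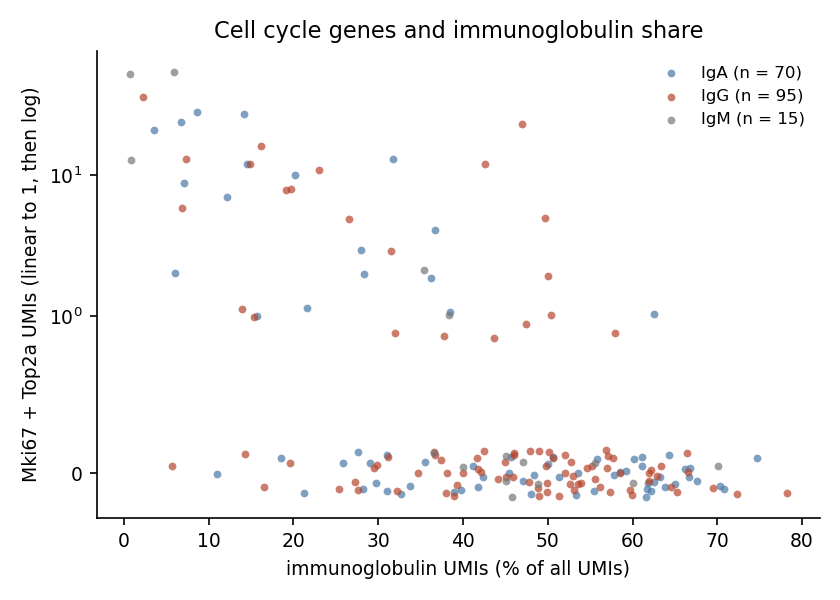
Each point is 1 plasma cell, placed by the percent of its UMIs on immunoglobulin genes (x axis) and by its summed *Mki67* and *Top2a* UMIs (y axis, linear to 1 and log above, with a small jitter), coloured by isotype; the cells with the most *Mki67* and *Top2a* UMIs lie at low immunoglobulin shares in all 3 isotypes.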

How the data were processed

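The authors made the counts with Cell Ranger (version 8.0.1 in the file headers) from 10x 3′ libraries of pooled abdominal aorta and deposited UMI counts per gene and barcode without normalization or doublet removal. The labels name the build mm10 and the study's methods GRCm39, and gene coordinates given here are those of the GRCm39 reference annotation (98.5% of 33696 gene IDs matched), while promoter coordinates are in GRCm38.p6, the build of their table. The matrices held 117146856 UMIs in 24804 AngII+HS barcodes and 86618995 UMIs in 11448 Control barcodes.

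Cells were filtered and chosen as stated above, in Python 3.11.15 with numpy 2.4.6, scipy 1.17.1 and pandas 2.3.3. Doublets were scored with Scrublet (scanpy 1.11.5) but kept, and their removal at 0.8% per 1000 cells was an alternative. A heavy chain was called from at least 10 UMIs and at least 50% of the heavy chain UMIs of a cell. Log2 ratios had 0.5 UMIs added, and their intervals are conditional binomial. PCR duplicates are collapsed by UMI, but intervals still cover counting error only. The ratio and thinning code was tested on simulated data.

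The members and lists were chosen with earlier results of these data known. The genes named are those of the lists, and beyond these the 15 highest and 10 lowest ratios. No test was run, because each condition had 1 library and cells are not replicates. The other assays and the human samples of the study were not analysed here.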

Additional observations from a re-analysis of the deposited data

How the results depend on the processing

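No paired analysis was possible because each condition had 1 library. Of 556 log2 ratios under alternatives 4 had the other sign, none of them 2-fold in the value given: the survival median (0.24) was -0.46 and the cell cycle median (0.51) -0.18 on the scale of all UMIs, the cell cycle median was -0.28 with B cells of at least 6 UMIs, and the homing median (-0.50) was 0.20 per cell. Of all 641 values 496 stayed within a set band around the value given, and 145 moved. The band was the counting error, or 1.5 times for counts. For the median immunoglobulin share it was the quartiles over cells. For list medians it was the median half-width of the intervals of single genes, which is not a counting error of the list median. List medians were 221 of the 641 values and 52 of those that moved. The AngII+HS plasma cell share was 0.855% without T cell and C1q limits and 0.570% with limits of 0. Leaving out cells with at least 2% of UMIs on genes of other cell types, from plasma and all other cells alike, gave 1.41%. The cells left out include those other types themselves, so this rise was fixed by the design of the step. Counting the common V pair as 1 cell, an alternative chosen after the data were seen like the previous one, lowered IgG2c to 22.7%. The pair was called in 3 cells with all V genes and in 27 by chain. Genes at least 2-fold higher and lower were 1198 and 1979, against 521 and 5160 on the scale of all UMIs, 3057 and 737 per cell, 3311 and 5235 with a filter of 1 UMI, and 538 and 1070 with a filter of 100 UMIs. The medians of plasma cell regulators, B cell surface genes, MHC class II genes and the 5 secretory lists were 0.57, -3.46, -3.13 and 0.86 on the scale of all UMIs and 1.97, -2.07, -1.73 and 2.26 per cell. With equal weight per cell the regulators had 2.08 and MHC class II -3.13, and without Scrublet doublets regulators, MHC class II and the secretory lists had 1.67, -3.07 and 1.89. Cycling plasma cells were 18.9% without thinning, 1.69% thinned to 500 UMIs, 16.8% with at least 1 gene and 4.62% with at least 3. The Control share rests on 4 cells, all removed with the doublets.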
